A study of Mus musculus with 6 samples.

Results

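Actb, B2m and Tfrc were followed across the arrays of a study of parathyroid hormone (PTH) in cementoblast-like cells. The 3 genes are among 15 genes that the array names by a RefSeq identifier, out of 60915 probes. They were taken by probe and identifier: Actb as NM_007393.3, B2m as NM_009735.3 and Tfrc as NM_011638.3, without the use of any measured value. Each gene has 1 probe, printed on 20 spots of every array, so 60 of the 61200 spots compared per array belonged to these genes. All cells were OCCM-30, a mouse cell line that keeps cementoblast traits, cementoblasts being the cells that lay down cementum on tooth roots. PTH cells were exposed to the hormone at 100 ng/ml, in an acetic acid vehicle, for 6 h of a 24 h cycle, and control cells to the vehicle alone (0.1%) for the same time. In both groups 18 h in fresh medium without either followed, and RNA was taken after 2 cycles. The labels name 3 biological replicates of this 1 line in each group, and no separate factor beyond treatment.

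Actb encodes cytoplasmic beta-actin, a building block of the microfilaments that give cells their shape and motility. B2m encodes beta-2 microglobulin, the small invariant chain that MHC class I heavy chains need to reach the cell surface, where they present peptides to T cells. Tfrc encodes the transferrin receptor, which brings iron bound to transferrin into the cell, and its mRNA is stabilised when iron is scarce. All 3 are used as reference genes, against which the level of other transcripts is expressed. In osteoblasts the PTH receptor couples to G proteins and raises cyclic AMP, which in turn activates the factor CREB.

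The 6 arrays differed in overall brightness. The 75th percentile of probe intensity lay between 503 and 585 on control arrays and between 486 and 540.03 on PTH arrays. Between 52.4% and 65.7% of probes were well above background, with 52.4% on PTH replicate 2 and at least 60.8% on every other array. On the first principal component, which held 65.1% of the variance, the control replicates lay at -45.1, 8.66 and -20.5 and the PTH replicates at 11.6, 17.6 and 27.7. Every PTH array was thus above every control array, and control replicate 2 was nearer to PTH replicate 1 than to the other controls. Results that move without that array are given without it too. In the fit over all 37011 tested probes, 2 passed a limma adjusted p under 0.05, or 0.0054%, and none of the 3 genes was among them. As the measurement is of bulk RNA, fewer cells with a transcript and less transcript per cell cannot be told apart.

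Actb was measured with high precision within each array and varied widely between control arrays. The mean intensity of its spots, averaged as log2 values and given in scanner units, was 8464, 11807 and 10052 on control replicates 1, 2 and 3. On PTH replicates 1, 2 and 3 it was 10459.8, 12072 and 10944. The groups overlapped: control replicate 2 was brighter than PTH replicates 1 and 3, and control replicate 1 was the dimmest of the 6. The mean was 10108 ± 1672 in control and 11159 ± 827 in PTH cells (SD, n = 3 each). The coefficient of variation between arrays was 16.5% in control and 7.41% in PTH cells, whereas the spots of 1 array varied by 1.72% to 3.10%. A wider spread in control was not particular to Actb. Among the 15 named genes, Nono, Tbp, Hsp90ab1, G6pd2 and Gusb varied by 16.7% to 21.9% in control and by 3.65% to 8.72% in PTH cells. B2m and Gk varied more in PTH cells, and Hprt and Tuba1b about equally in both groups.

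B2m was the steadiest of the 3 in unscaled intensity among control arrays. Its spots averaged 50597, 51427 and 52702 on control replicates 1, 2 and 3. On PTH replicates 1, 2 and 3 they averaged 50978, 56381 and 51541. PTH replicate 2 was the brightest array, and the other 5 arrays lay close together regardless of treatment. The mean was 51576 ± 1060.5 in control and 52967 ± 2970.4 in PTH cells (SD, n = 3 each), with coefficients of variation of 2.06% and 5.61%.

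Tfrc gave spots of 89712, 101118 and 97739 on control replicates 1, 2 and 3. On PTH replicates 1, 2 and 3 the intensity was 98993, 99332 and 94750.1. Control replicate 1 was the dimmest array and control replicate 2 the brightest, so all PTH arrays fell within the control range. The mean was 96189.9 ± 5859 in control and 97692 ± 2553 in PTH cells (SD, n = 3 each), with coefficients of variation of 6.09% and 2.61%. Every spot of the 3 genes was well above background on every array and none was saturated. The brightest array mean, for Tfrc, was 13.0% of the scanner's saturation value. Spot intensity depends on how well each probe binds its target, so although Tfrc spots were brighter than B2m spots, and B2m spots than Actb spots, on all 6 arrays, no order of transcript abundance follows.

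**Figure D1:**
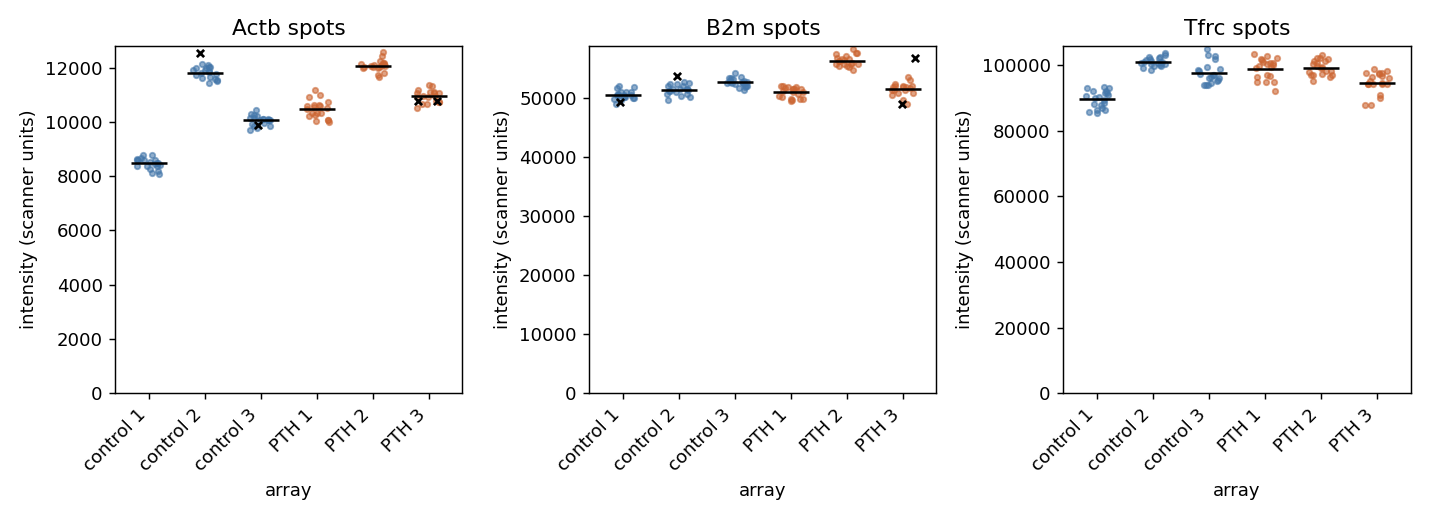
Intensity of each Actb, B2m and Tfrc spot in scanner units (vertical axis, from 0) on the 3 control (blue) and 3 PTH (orange) arrays; bars are the mean of the spots used and crosses are spots left out for the scanner software's outlier marks. Spots of 1 array lie close together, while the Actb mean runs from 8464 on control replicate 1 to 12072 on PTH replicate 2.

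Scaling to the array's 75th percentile, which is meant to allow for array brightness, gave the levels that were tested. The percentile did not follow the brightness of the 3 genes. It was highest on control replicate 1, at 585, where the unscaled intensity of Actb, B2m and Tfrc was lowest. The scaled log2 level of Actb was 3.85, 4.55 and 4.19 on control replicates 1, 2 and 3. It was 4.43, 4.48 and 4.43 on PTH replicates 1, 2 and 3. The PTH arrays spanned 0.054 and the control arrays 0.70 on the log2 scale, and control replicate 2 lay above all PTH arrays. The difference, PTH minus control, was 0.25 (SE 0.16, 95% confidence interval -0.11 to 0.61, limma adjusted p = 0.44), equal to 1.19-fold (0.925 to 1.53), so a difference was not shown. It was 0.15 both after quantile normalization and without scaling between arrays, with limma adjusted p of 0.61 and 0.55. Without control replicate 2 it was 0.43 and passed (limma adjusted p = 0.031), in a fit where 14.0% of all tested probes passed, and without control replicate 1 it was 0.077 (limma adjusted p = 0.86). With array weights, which count the arrays unequally, 0.26 passed (limma adjusted p = 0.031), in a fit where 32.5% of probes passed.

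For B2m the scaled log2 level was 6.43, 6.68 and 6.58 on control replicates 1, 2 and 3. It was 6.71, 6.71 and 6.67 on PTH replicates 1, 2 and 3. Control replicate 2 lay just inside the PTH range, so the groups overlapped. B2m differed by 0.13 (SE 0.073, 95% confidence interval -0.036 to 0.30, limma adjusted p = 0.40), or 1.097-fold (0.975 to 1.23), and its direction was not settled, since quantile normalization gave -0.041. It was 0.037 without scaling between arrays, 0.069 without control replicate 1 and 0.19 without control replicate 2, with limma adjusted p of 0.76, 0.78 and 0.097.

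For Tfrc the scaled log2 level was 7.26, 7.65 and 7.47 on control replicates 1, 2 and 3. It was 7.67, 7.52 and 7.55 on PTH replicates 1, 2 and 3. Control replicate 2 was second only to PTH replicate 1, and the groups overlapped. Tfrc differed by 0.12 (SE 0.10, 95% confidence interval -0.12 to 0.36, limma adjusted p = 0.56), or 1.09-fold (0.922 to 1.28), and its direction was not settled either, since quantile normalization gave -0.042. The value was 0.024 without scaling, 0.020 without control replicate 1, 0.22 without control replicate 2 and 0.074 without PTH replicate 1, with limma adjusted p of 0.85, 0.96, 0.13 and 0.78. The slide held its arrays in rows, and the upper row carried the 3 control arrays and PTH replicate 1. Within it the differences were 0.23 for Actb, 0.15 for B2m and 0.21 for Tfrc, with limma adjusted p of 0.85, 0.84 and 0.84, and they rest on that 1 PTH array.

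**Figure D2:**
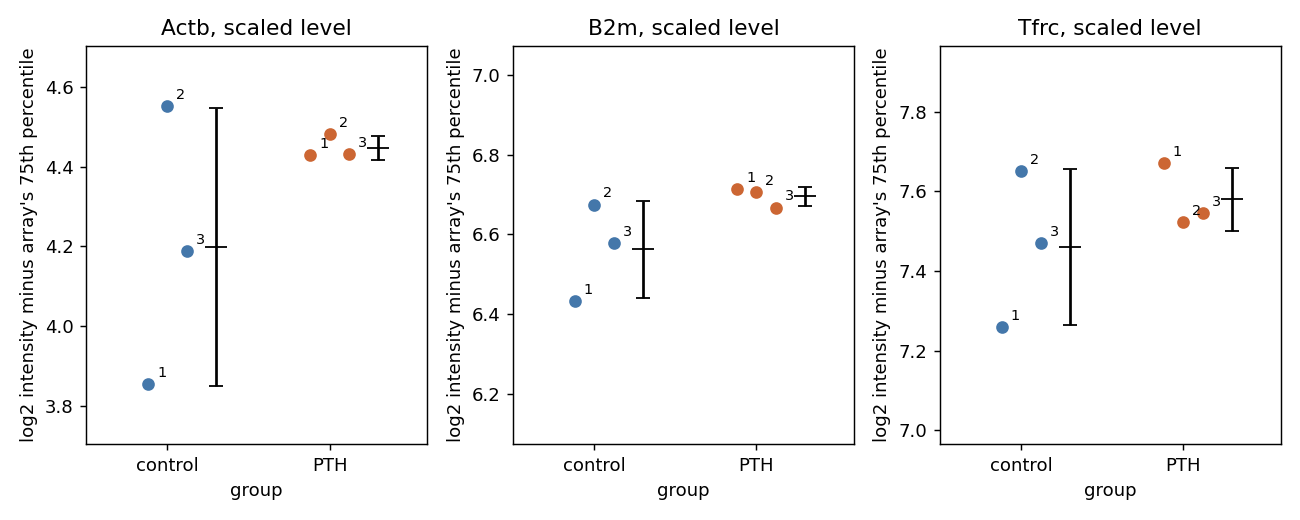
Scaled level (log2 intensity relative to the 75th percentile of the array, vertical axes of equal span) of Actb, B2m and Tfrc by group; points are arrays, numbered by replicate, and bars are the mean ± SD (n = 3). Control arrays spread more than PTH arrays for each gene, over 0.70 against 0.054 for Actb, and the groups overlap; the B2m and Tfrc differences change sign after quantile normalization.

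Scaling widened the spread of all 3 genes. Over the 6 arrays the SD of Actb was 0.19 on the unscaled and 0.26 on the scaled log2 values. For B2m it went from 0.058 to 0.11 and for Tfrc from 0.063 to 0.15. The scaled range over the 6 arrays was 0.70 for Actb, 0.28 for B2m and 0.41 for Tfrc. Among tested probes measured on all arrays, 90.0% had a smaller range than Actb, 36.1% a smaller range than B2m and 62.8% a smaller range than Tfrc, with a median of 0.34. Among the 15 named genes, Actb had the widest scaled range, but its unscaled range of 0.51 was smaller than those of Tbp, Nono, G6pd2 and Hsp90ab1, at 0.65, 0.65, 0.55 and 0.53. The groups overlapped for all 3 genes, whereas 21.3% of all tested probes had every PTH array on one side of every control array.

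The SD between spots of 1 array was 0.032 for Actb, 0.024 for B2m and 0.041 for Tfrc on the log2 scale, and the standard error of an array's mean was at most 0.011. The SD of the scaled level between arrays of a group was 7.78 times that between spots for Actb, 3.60 times for B2m and 3.62 times for Tfrc. Part of this spread came with the scaling. On unscaled log2 values the SD between arrays of a group was 0.19 for Actb, 0.060 for B2m and 0.068 for Tfrc, each still above that between spots. Since the 20 spots of a gene have the same places on every array, their deviations were compared between arrays. The median correlation over 15 pairs of arrays was 0.29 for Actb, 0.062 for B2m and 0.35 for Tfrc, each over up to 20 spots that share a slide and a scan.

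The arrays also carry control spots for mouse GAPDH whose names end in 3 or 5, and these were read beside the spread of the 3 genes. The log2 difference between them, 3 minus 5, was 1.20, 1.53 and 1.36 on control replicates 1, 2 and 3. It was 1.67, 1.51 and 1.56 on PTH replicates 1, 2 and 3. Control replicates 1 and 3 were the lowest on this measure and also the lowest in scaled level of Actb, B2m and Tfrc. Control replicate 2, at 1.53, fell between PTH replicates 2 and 3. The matching spots for mouse PGK1 were likewise lowest on control replicates 1 and 3, at 7.02 and 7.33, against 7.50 to 7.61 on the other arrays. The pattern was not particular to the 3 genes. Ppia, Gapdh, Hprt and Tuba1b also had their lowest scaled levels on control replicates 1 and 3. Tbp, Nono, Gusb, Hsp90ab1 and G6pd2 had their highest there. The part of these signal differences in the levels of the 3 genes was not tested, and the files do not state what the digits stand for.

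A ratio of 2 probes on 1 array needs no scaling between arrays, so the genes were also set against each other. The log2 ratio of Actb to B2m was -2.58, -2.12 and -2.39 on control replicates 1, 2 and 3, and -2.29, -2.22 and -2.24 on PTH replicates 1, 2 and 3. All PTH ratios lay within the control range. Its mean differed by 0.12 (PTH minus control, exact permutation p = 0.50, two-sided). The ratio of Actb to Tfrc was -3.41, -3.10 and -3.28 on control arrays and -3.24, -3.04 and -3.11 on PTH arrays, and differed by 0.13 (exact permutation p = 0.30). Control replicate 1 had the lowest value of both ratios. The ratio of B2m to Tfrc was -0.83, -0.98 and -0.89 on control arrays and -0.96, -0.82 and -0.88 on PTH arrays, and differed by 0.013 (exact permutation p = 0.70). This ratio varied least, with an SD of 0.065 over the 6 arrays against 0.16 for Actb to B2m and 0.14 for Actb to Tfrc. Adjusted over the 3 pairs, each exact permutation p was 0.70, and 3 arrays against 3 cannot go below 0.10. Without control replicate 2 the Actb to B2m difference was 0.24 and that of Actb to Tfrc 0.21, and without control replicate 1 they were 0.0086 and 0.058. Within the upper row of the slide they were 0.079 and 0.019, and B2m to Tfrc was -0.060. Unequal change was not shown for any of the 3 pairs.

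**Figure D3:**
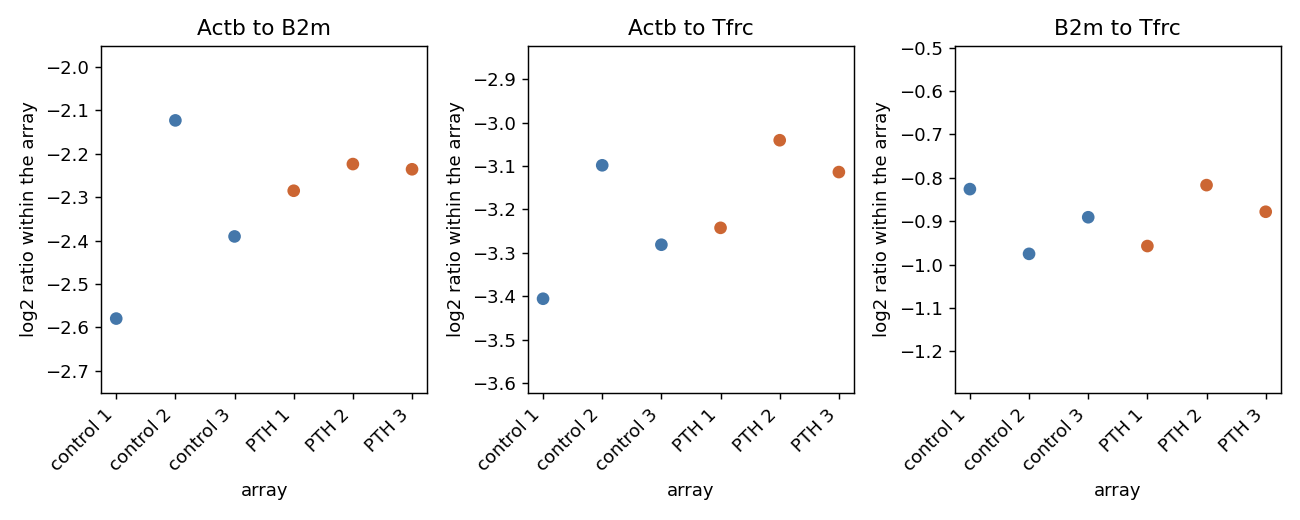
Log2 ratio of the spot means of 2 genes on each array (vertical axes of equal span) for Actb to B2m, Actb to Tfrc and B2m to Tfrc, with control arrays in blue and PTH arrays in orange. Both ratios with Actb vary more between control arrays, from -2.58 to -2.12 and from -3.41 to -3.10, than B2m to Tfrc does, from -0.98 to -0.83.

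Likeness was measured as the root-mean-square distance between scaled log2 profiles, each centred on its own mean over the 6 arrays. Among the other named genes, the nearest to Tfrc was B2m, at 0.060, followed by Gapdh, a glycolytic enzyme, at 0.064. The nearest to B2m were Tuba1b, an alpha-tubulin of microtubules, at 0.043, and Hprt, a purine salvage enzyme, at 0.046. Actb had no gene as near, and its nearest were Tfrc at 0.13 and B2m at 0.15. Because the distance grows with the spread of a gene, the wide range of Actb enters these values.

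Since PTH raises cyclic AMP in osteoblasts, the promoters of B2m and Tfrc were read from RefSeq (GRCm38.p6, plus strand, 5′ to 3′). Actb had no entry among the promoter sequences used, so its promoter could not be read. Capitals mark TGACG, the half-site of the motif that CREB binds. Both strands were searched in the 250 bases before each start.

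B2m, chr2:122147437-122147686: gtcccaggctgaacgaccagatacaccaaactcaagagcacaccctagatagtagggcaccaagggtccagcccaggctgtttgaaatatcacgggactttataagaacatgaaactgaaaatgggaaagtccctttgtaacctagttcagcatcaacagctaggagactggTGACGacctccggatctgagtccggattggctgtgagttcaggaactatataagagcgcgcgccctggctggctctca
Tfrc, chr16:32608646-32608895: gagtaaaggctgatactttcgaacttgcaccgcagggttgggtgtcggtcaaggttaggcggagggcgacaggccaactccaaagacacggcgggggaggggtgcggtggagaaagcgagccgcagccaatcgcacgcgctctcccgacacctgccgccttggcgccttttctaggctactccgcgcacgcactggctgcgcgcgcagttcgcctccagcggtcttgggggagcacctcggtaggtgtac

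B2m holds TGACG 78 bases before its start, counted to the first base of the match. The window of the upstream Tfrc start holds no match. RefSeq lists a second Tfrc start, and TGACG lies 213 bases before it. Neither gene holds the full palindrome TGACGTCA in these windows. Over 32851 windows of the same length, 17.8% hold TGACG and 1.55% hold TGACGTCA. A match describes letters and not a bound site.

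The other genes of each pathway could hardly be followed, since most probes of this array are not paired with a gene. Of 21 actin cytoskeleton genes only Actb had a named probe, of 16 MHC class I and antigen presentation genes only B2m, and of 14 iron genes only Tfrc. None of 15 PTH response genes, 9 cementoblast and osteoblast markers or 16 markers of other cell types had one, so the labelled cell type was not checked here. Of 32 reference genes, 12 had a probe, Actb, B2m and Tfrc among them. Of the 12, 0 passed in either direction, against 0.0054% of all tested probes. The median difference of the 12 was 0.029, with 6 of 12 above 0, and Actb, B2m and Tfrc belonged to these 6. Over all 37011 tested probes the median was 0.010, with 52.6% above 0.

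Over the 15 named genes, 9 differences were above 0 and 6 below with the 75th percentile, but 3 were above and 12 below after quantile normalization, and 7 and 8 without scaling. Of all tested probes, 52.6% were above 0 with the 75th percentile, 45.5% after quantile normalization and 29.0% without scaling. The median of the 15 genes was 0.079, or -0.051 after quantile normalization, and 0 passed the adjusted limma test, against 0.0054% of all probes. At an unadjusted limma p under 0.05 there were also 0 of 15, against 15.1% of all tested probes. At 0.25, Actb had the largest difference among them on the 75th percentile scale. At 0.145 after quantile normalization and 0.153 without scaling, it was smaller in size than Tbp, Nono, Hsp90ab1 and Gusb, which were negative. Rpl13a after quantile normalization, at -0.17, and G6pd2 without scaling, at -0.20, were also larger in size than Actb. Between B2m at 0.13 and Tfrc at 0.12 lay Gk at 0.13, Ppia at 0.13 and Gapdh at 0.12. Gk was dim, with array means of 131 to 170 scanner units, and its scaled level ran from -2.05 to -1.52 between PTH arrays. After quantile normalization Gk stayed at 0.13 (limma adjusted p = 0.61), while B2m and Tfrc turned negative, at -0.041 and -0.042. Ppia and Gapdh were then close to 0, at -1.8e-04 and -0.0048. Tuba1b differed by 0.14, or by -0.051 after quantile normalization, and on the 75th percentile scale was the only gene among them with all PTH arrays above all control arrays, a pattern that 12.5% of all probes showed.

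**Figure D4:**
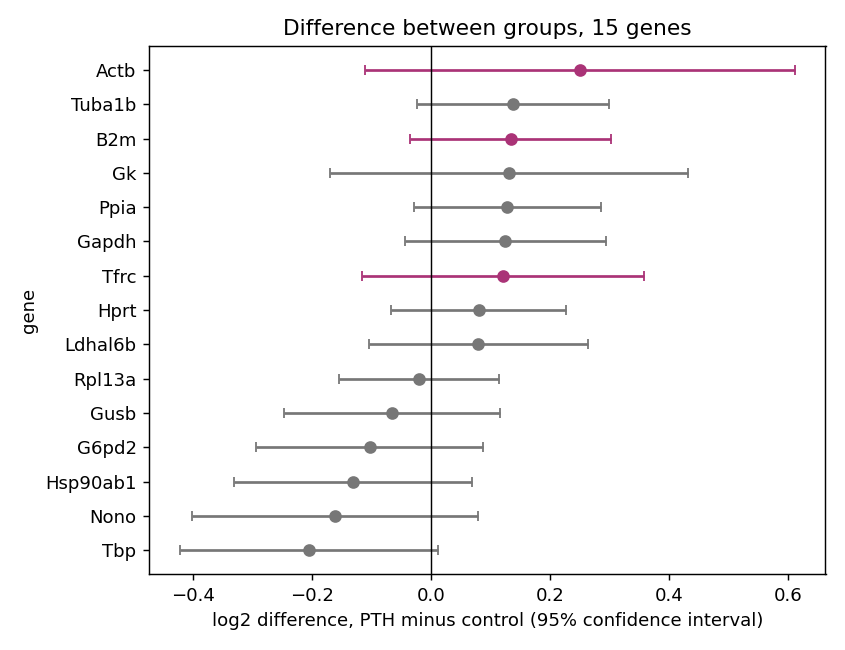
Difference between PTH and control in scaled log2 level (horizontal axis) for the 15 genes named by a RefSeq identifier, with 95% confidence intervals; Actb, B2m and Tfrc are coloured and the others grey. All 15 intervals include 0, and the widest belongs to Actb (-0.11 to 0.61). B2m, Tfrc and others change sign after quantile normalization, which leaves 3 of 15 above 0, against 45.5% of all tested probes.

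As all 3 genes serve as references, every array was also scaled to each of them in place of the 75th percentile. Scaled to Actb, 292 of 37011 probes passed the adjusted limma test, or 0.789%, 207 higher and 85 lower in PTH. Scaled to B2m, to Tfrc or to the mean of the 3 genes, 2 probes passed, both higher, as with the 75th percentile, where 2 were higher and 0 lower. The choice also moved the middle of the distribution. The median log2 difference of all tested probes was -0.24 when scaled to Actb, -0.12 when scaled to B2m, -0.11 when scaled to Tfrc and -0.16 when scaled to the mean of the 3, against 0.010 with the 75th percentile. Scaled to Actb, 8.02% of probes were above 0, against 21.9% with B2m and 24.3% with Tfrc. By construction these scalings set the chosen gene equal on all arrays, so its own difference is subtracted from that of every other probe.

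**Figure D5:**
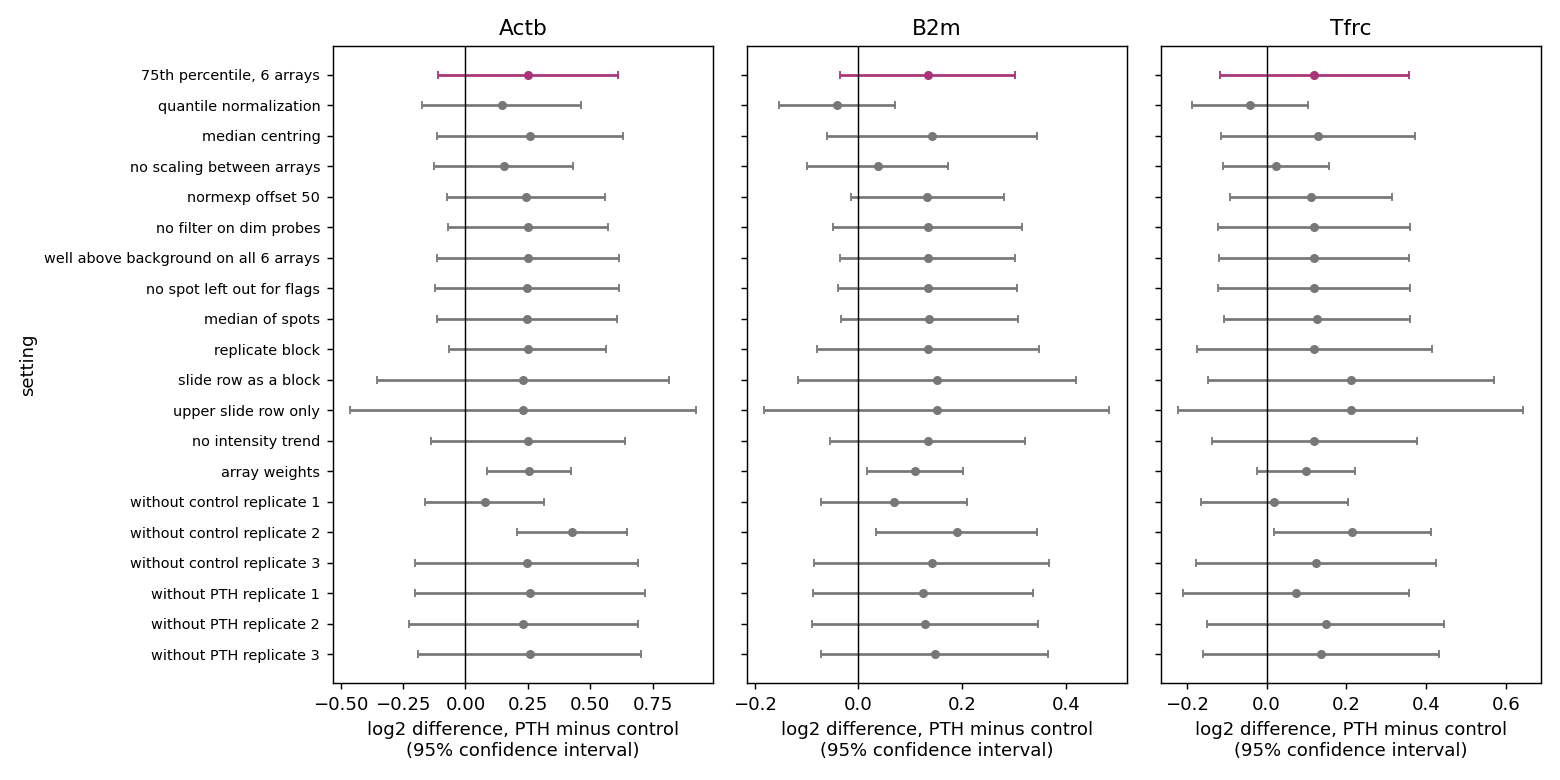
Difference between PTH and control in log2 level (horizontal axes, which differ in span) of Actb, B2m and Tfrc under each setting of the processing, with 95% confidence intervals; the setting of the report is coloured. Actb stays above 0 in every setting shown, from 0.077 without control replicate 1 to 0.43 without control replicate 2, and B2m and Tfrc are at -0.041 and -0.042 after quantile normalization.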

How the data were processed

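RNA of 3 control and 3 PTH cultures was read on 1-colour Agilent arrays. The deposited values are spot intensities from Agilent Feature Extraction 11.0.1.1, background-subtracted and detrended within each array and not normalised between arrays, per the file headers. Per the file headers, the design follows mm9; the promoter windows are on GRCm38.p6, and no other coordinates are printed. The 1439 control and 300 negative-named spots were left out, as were spots that carry either outlier mark of the scanner software. The other deposited columns used are the well-above-background, outlier and saturation marks, the median spot and background signals, and the spot positions.

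The spots of a probe were averaged as log2 intensity, and the array's 75th percentile was subtracted. Probes well above background on all usable arrays of 1 group, with at least 2 usable arrays per group, were tested with limma 3.58.1 in R 4.3.3 (intensity trend, two-sided, Benjamini-Hochberg). The fit was tested on simulated data. Replicates are those of the labels, so p-values measure the spread between these samples, and precision is limited by having 3 arrays a group. RefSeq symbols matched 15 of 15 identifiers without versions. Ratios were tested by exact permutation. Named are Actb, B2m, Tfrc, the 2 nearest profiles of each and up to 4 members with a probe from each gene list. Tbp, Nono, Hsp90ab1, Gusb, Rpl13a, G6pd2, Gk and Ppia were named after their values were seen. The members and lists were chosen with earlier results of these data known.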

Additional observations from a re-analysis of the deposited data

How the results depend on the processing

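Signs and calls were compared over 19 alternatives for each gene. Actb stayed above 0 in all 19 and passed in 2, with array weights (0.26) and without control replicate 2. B2m and Tfrc were above 0 in 18 and reversed with quantile normalization, to -0.041 and -0.042, and passed in none. The cause was not tested. With 1 array left out at a time, the difference was 0.077 to 0.43 for Actb, 0.069 to 0.19 for B2m and 0.020 to 0.22 for Tfrc. For the ratios it was 0.0086 to 0.24 (Actb to B2m), 0.058 to 0.21 (Actb to Tfrc) and -0.026 to 0.050 (B2m to Tfrc), and B2m to Tfrc moved to -0.060 in the upper slide row. The count of 2 probes became 9 with the replicate block, 16 with the slide row as a block, 10 in the upper slide row, 12014 with array weights and 2 to 5408 without each array, where 5408 is the fit without control replicate 2. Same-numbered samples are not paired by the labels; their deviations from the group means correlated at 0.13, 0.0042 and -0.074, and 2 of 6 samples were closest to their own number. The block changed no call of the 3 genes. Both slide row fits rest on 1 PTH array, which is taken to vary like the others. Scaling to single genes was chosen after seeing the data; with Actb it gave 292. Normexp used the median spot signal. All 3 genes lie far above background, but the choice of scaling between arrays moves their differences. The part of dim spots of other probes in that scaling was not tested.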
